A study of Bos taurus with 30 samples.

Results

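The miR-130, miR-301 and miR-454 family is made up of 5 mature bovine miRNAs in these data, bta-miR-130a, bta-miR-130b, bta-miR-301a, bta-miR-301b and bta-miR-454, written below without the species prefix. They were taken by name from a table of 1030 mature miRNAs, and each of the 5 was present in it and measured in each of 30 libraries. Small RNA from the anterior pituitary, the lobe that secretes gonadotropins, growth hormone, prolactin and the other anterior hormones, was sequenced from 30 Holstein-Friesian bull calves, each giving 1 library when 12 weeks old. Starting at 2 weeks, the high plane (HI, n = 15) supplied milk replacer at 1.5 kg daily, in 10 litres, with concentrate to appetite. The moderate plane (MOD, n = 15) supplied 0.5 kg of milk replacer in 4 litres and at most 0.5 kg of concentrate daily. The comparison of the diets asks whether early plane of nutrition alters miRNA expression in the gland.

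A miRNA guides Argonaute proteins to messenger RNAs, mainly through its seed (bases 2 to 8), and lowers their stability and translation. The 5 miRNAs are classed as 1 family because they carry the same seed, so they are predicted to share many of their targets, among which PPARG, a regulator of fat cell formation, is a well-known example. Members of the family are studied mostly for roles in proliferation, hypoxia and TGF-beta signalling.

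Their genes lie at 3 places. In RefSeq, on assembly ARS-UCD2.0, MIR130B and MIR301B are next to each other, MIR454 and MIR301A both lie inside SKA2, which encodes a subunit of a complex that holds chromosomes to the spindle, and MIR130A stands apart, beside YPEL4. The family therefore holds 2 neighbouring pairs, miR-130b with miR-301b and miR-301a with miR-454, and 1 miRNA with no family member beside it.

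The values are counts per 1e+06 miRNA reads (CPM) that the authors had scaled by TMM factors, which correct for differences in composition. Libraries held 6650492 to 11086524 reads on miRNAs, and 3 reads were worth 0.266 to 0.419 CPM. Every value of the 5 miRNAs was a whole number of reads in all 30 libraries. The pituitary endocrine list (miR-375, miR-7 and 5 others, 7 in all) was present in full, with a summed level of 155241 to 255170 CPM in HI and 183639 to 254028 CPM in MOD libraries. A set of 9 calves, those whose labels carry the highest numbers (5 fed HI and 4 fed MOD), stood apart from the other 21 in earlier work on these data. Between the sets 26.0% of the 419 miRNAs tested passed FDR < 0.1 in limma with diet in the model (11.7% higher and 14.3% lower in the 9). The boundary had been chosen from the values of another miRNA. The diet difference of each member is also given within each set. So are the ratio of miR-301a to miR-454 and the correlations that passed an adjusted p of 0.1. Most other results are over all 30 calves.

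The family was dominated by miR-301a and miR-130a. Together the 5 made up 0.21% of miRNA reads, at a summed level of 1843 to 2474 CPM in HI calves (median 2085) and 1809 to 2374 CPM in MOD calves (median 2127). Of that sum, miR-301a held 58.4% and miR-130a 37.8% on average, against 2.05% for miR-130b, 1.22% for miR-454 and 0.544% for miR-301b. A read covers a whole mature miRNA, so no length correction was needed, although ligation efficiency differs between sequences and was not corrected. The most abundant member, miR-301a, was at 1227 ± 121 CPM (SD, n = 30) and ranked 66 of 419 by mean CPM. The level of miR-130a was 795 ± 94.5 CPM (rank 79). Next came miR-130b at 42.8 ± 13 CPM (rank 204) and miR-454 at 25.6 ± 3.53 CPM (rank 238). The least abundant was miR-301b, at 11.4 ± 3.5 CPM (rank 295, SD, n = 30 for each).

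**Figure D1:**
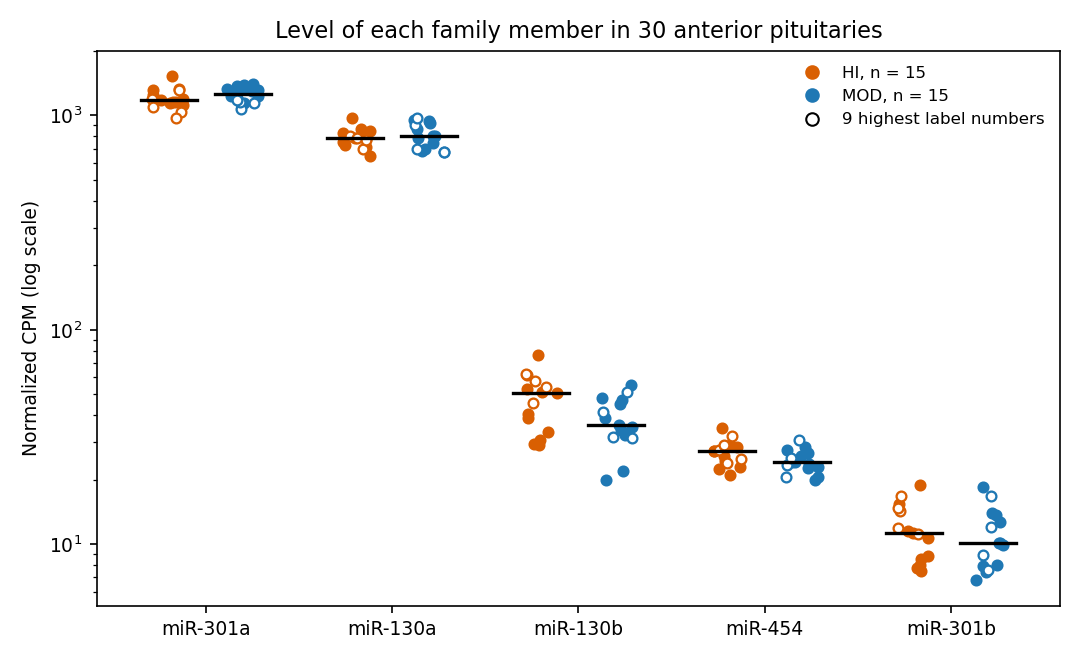
Normalized CPM (log scale) of the 5 family members, with 1 point per calf for the HI and MOD groups, open points for the 9 calves with the highest label numbers and a bar at each median. The family spans from about 11.4 CPM (miR-301b) to 1227 CPM (miR-301a). The diets overlap for each member, as they do for all 419 miRNAs tested.

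Each neighbouring pair in this order differed. In the same library, miR-301a was 1.18 to 2.06 times miR-130a, and it was the higher in 30 of 30 calves. The widest step was that from miR-130a to miR-130b, with a ratio of 10.3 to 34.2, again in 30 of 30 calves. The ratio of miR-130b to miR-454 was 0.827 to 2.67 and above 1 in 28 calves, and that of miR-454 to miR-301b was 1.25 to 3.45 and above 1 in 30 calves. For each of these 4 steps the paired sign-flip permutation test (two-sided) gave p = 1e-05, adjusted over the 4, which is the smallest its resamples can give. The order was taken from the same libraries, so these p-values are no independent test of it. They do not measure how steady a step was over calves. The SD of the log2 ratio over calves was 0.21 for miR-301a to miR-130a and 0.49 for miR-130a to miR-130b. The genomic neighbours were thus far apart in level, since the 2 miRNAs inside SKA2 were the highest and the second lowest of the family.

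The members also differed in how much they varied between calves. Within a diet, the SD of log2(CPM + 1) was 0.14 for miR-301a, 0.17 for miR-130a and 0.18 for miR-454, each under the median of 0.25 over the 419 miRNAs tested. It was 0.42 for miR-130b and 0.40 for miR-301b, and 60 and 69 of the 419 had a larger one. The CVs that follow are over all 30 calves, both diets together. For miR-130b, at 169 to 740 reads per library, the CV that counting error alone gives was 5.40% and the observed CV 30.3%. Within HI calves the observed CV of miR-130b was 29.3%, and within MOD calves 26.7%. For miR-301b, at 52 to 184 reads, the counting CV was 10.5% and the observed CV 30.7%. For miR-454, at 151 to 359 reads, these were 6.79% and 13.8%.

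By diet, none of the 5 members passed FDR < 0.1 in limma, where 3.58% of the 419 tested miRNAs did (1.91% higher and 1.67% lower in HI calves). At an unadjusted p under 0.05 there was 1 member, miR-130b, beside 12.6% of all miRNAs. That count was 0 when any of 14 calves was left out singly. It was also 0 with miR-486 as a covariate, or with the 4 groups by the second digit of the label number in the model. It was 2, miR-130b and miR-454, without HI calf 10 or without MOD calf 15. Total-count scaling, and library sizes without the 5 most abundant miRNAs, gave the same 2 members. Under upper quartile scaling the 1 member was miR-301a. For miR-130b a permutation test of the same difference gave p = 0.0504. On the recovered reads the count at FDR < 0.1 was also 0 in edgeR's quasi-likelihood test (5.01% of all miRNAs passed), in DESeq2 (5.73%) and in the exact test of edgeR. Fold changes compare HI with MOD and are of log2(CPM + 1), which understates changes of low miRNAs, and the median over all 419 was 0.02.

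The member with the largest difference was miR-130b. Its levels ran from 29.0 to 76.2 CPM in HI calves (median 50.9) and from 19.9 to 55.0 CPM in MOD calves (median 36.0). The ranges overlapped for most calves, with 4 HI calves above the highest MOD calf and 2 MOD calves below the lowest HI calf, and 11 of 15 HI calves were higher than the MOD median. The means were 47.6 ± 14 and 37.9 ± 10.1 CPM (SD, n = 15 each), a log2 fold change of 0.31 ± 0.15 (SE, 95% interval 0.01 to 0.61, FDR = 0.335 from limma). Its upper bound exceeds the log2 value of the study's fold change threshold of 1.5, which is 0.58. The 9 calves taken alone gave a log2 difference of 0.54 (exact permutation test, two-sided, p = 0.0317) and the 21 gave 0.19 (p = 0.339 in the same exact test). The difference between these sets did not pass FDR < 0.1 (interaction 0.35, standard error 0.31, FDR = 0.855 from limma), and no miRNA did (0.00%).

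Its genomic neighbour miR-301b ran from 7.54 to 18.9 CPM in HI calves (median 11.3) and from 6.78 to 18.4 CPM in MOD calves (median 10.1). The diets covered nearly the same range, and 10 of 15 HI calves exceeded the MOD median. The log2 fold change was 0.11 ± 0.14 (SE, 95% interval -0.18 to 0.40, FDR = 0.873 from limma). Within the 9 calves the log2 difference of miR-301b was 0.30 (exact permutation p = 0.254), and within the 21 it was 0.005 (exact permutation p = 0.977).

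For miR-454, HI calves ran from 21.1 to 35.0 CPM (median 27.1) and MOD calves from 19.9 to 30.6 CPM (median 24.1). Above the MOD median were 11 HI calves, 2 HI calves lay above every MOD calf and 3 MOD calves below every HI calf. The log2 fold change was 0.12 ± 0.07 (SE, 95% interval -0.02 to 0.26, FDR = 0.572 from limma). Within the 9 calves the log2 difference of miR-454 was 0.14 (exact permutation p = 0.317), and within the 21 it was 0.11 (exact permutation p = 0.18).

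The abundant members had estimates below 0. For miR-301a, HI calves ran from 975 to 1528 CPM (median 1182) and MOD calves from 1073 to 1402 CPM (median 1259). Only 4 of 15 HI calves exceeded the MOD median, although the highest of all 30 was HI calf 7. The log2 fold change was -0.07 ± 0.05 (SE, 95% interval -0.18 to 0.04, FDR = 0.721 from limma). For miR-130a, HI calves ran from 644 to 968 CPM (median 781) and MOD calves from 672 to 972 CPM (median 801), and 4 HI calves exceeded the MOD median. Its log2 fold change was -0.04 ± 0.06 (SE, 95% interval -0.16 to 0.09, FDR = 0.920 from limma), and it turned positive, at 0.03, when libraries were scaled by total counts, a scaling under which the median over all miRNAs was 0.07. Within the 9 calves the log2 difference of miR-130a was -0.07 (exact permutation p = 0.571), and within the 21 it was -0.02 (exact permutation p = 0.788). For miR-301b, miR-454, miR-301a and miR-130a the 95% intervals lay inside the study's fold change threshold of 1.5 in either direction.

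**Figure D2:**
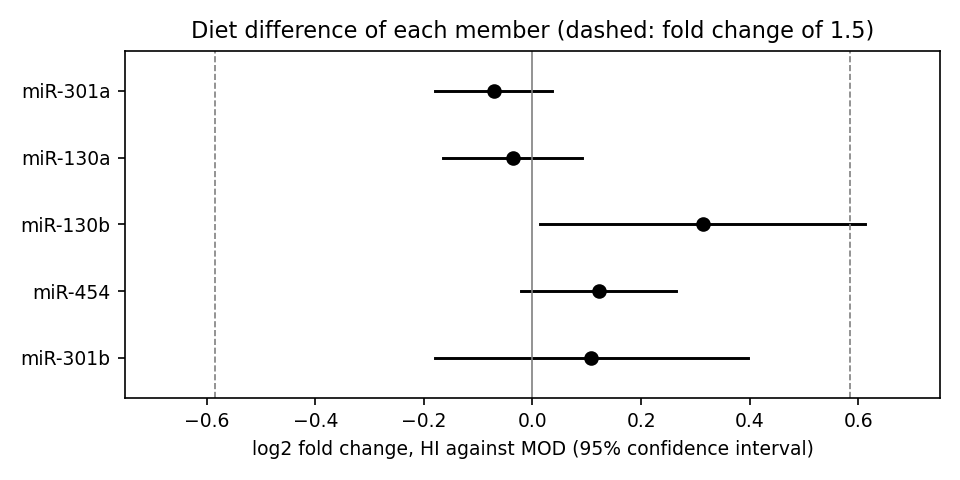
Log2 fold change of each member, HI against MOD (x axis), with its 95% confidence interval from limma (n = 15 per diet) and dashed lines at a fold change of 1.5. The interval of miR-130b is the widest, from 0.01 to 0.61, and those of miR-301a (-0.18 to 0.04) and miR-130a (-0.16 to 0.09) are the narrowest.

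Whether the members differed from each other in their response was tested with the ratio of 2 members within a library, in which the scaling of the library cancels apart from the pseudocount of 1. Of the 10 pairs, 1 passed an adjusted p of 0.1, miR-301a against miR-454, the neighbours inside SKA2. The ratio ran from 37.5 to 52.9 in HI calves (median 45.3) and from 38.6 to 67.4 in MOD calves (median 52.3). Only 1 of 15 HI calves exceeded the MOD median and 7 MOD calves lay above every HI calf. Mean ratios were 45.3 ± 4.81 and 52.1 ± 6.97 (SD, n = 15 each), a log2 difference of -0.19 (standard error 0.06, two-sided permutation test, p = 0.0041, adjusted p = 0.041 over the 10 pairs). The direction is that of the single values, lower miR-301a and higher miR-454 in HI calves, neither of which passed FDR < 0.1 alone.

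The ratio was also lower in the 9 calves with the highest label numbers, at 43.4 ± 5.41 (SD, n = 9), than in the other 21, at 50.9 ± 6.20 (SD, n = 21). The diets differed by -0.16 on the log2 scale in the 9 (exact permutation p = 0.175) and by -0.19 in the 21 (exact permutation p = 0.00551). With diets permuted within the sets, a test added after the data were seen, the difference was -0.18 (permutation p = 0.0021). Leaving out any 1 of the 30 calves kept the log2 difference between -0.22 and -0.17, with an adjusted p of at most 0.0902.

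The 3 ratios of miR-130b to miR-130a, miR-301a and miR-301b each had an unadjusted permutation p under 0.05, and none passed an adjusted p of 0.1 (0.109 for each). The mean ratio of miR-130b to its neighbour miR-301b was 4.07 ± 0.693 in HI calves, from 3.18 to 5.25, and 3.56 ± 0.712 in MOD calves, from 2.69 to 4.76 (SD, n = 15 each). The MOD median was exceeded by 12 HI calves, for a log2 difference of 0.20 (standard error 0.09, permutation test, p = 0.0346). Single calves decided the number of pairs that passed, which was 5 without HI calf 10, 4 without HI calf 1, 2 or 7 or MOD calf 5 or 15, and 3 without HI calf 4, 9 or 12 or MOD calf 2, 4 or 9. It was 1 without any other calf.

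**Figure D3:**
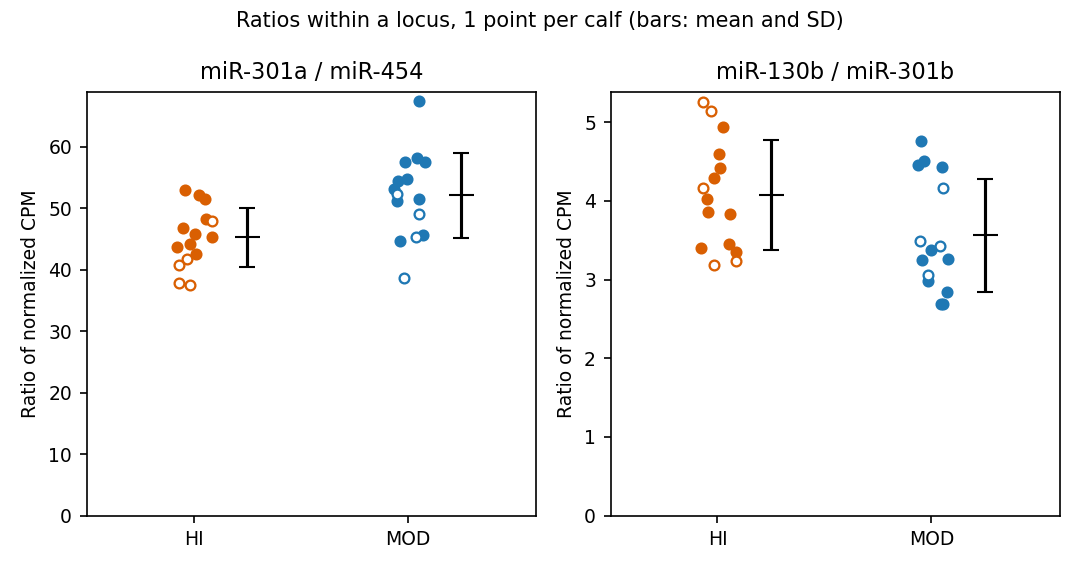
Ratio of normalized CPM within each library for the neighbours miR-301a and miR-454 (left) and miR-130b and miR-301b (right), with 1 point per calf, open points for the 9 calves with the highest label numbers, and the mean and SD of each diet. The left ratio averages 45.3 in HI and 52.1 in MOD calves, and the right 4.07 and 3.56.

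Across the 30 calves the neighbours miR-130b and miR-301b rose and fell together. Pearson's r of log2(CPM + 1) was 0.80 and Spearman's rho 0.80 (permutation p = 1e-05 for each, the smallest its resamples can give, adjusted p = 0.0001 over the 10 pairs). HI calf 5 was the highest for both and MOD calf 9 was the highest MOD calf for both, while HI calf 10 was the lowest HI calf for both. Without the 2 calves farthest from the median of miR-130b r was 0.76. It was 0.81 within the 21 calves, 0.84 within HI and 0.79 within MOD calves. Within the 9 calves r was 0.71 and rho 0.40, and the adjusted p of r was 0.176 (exact permutation test). All values of a library share its total.

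For the neighbours inside SKA2, miR-301a and miR-454, r was 0.33 and rho 0.26 (permutation p = 0.0749 and p = 0.168, adjusted p = 0.187 and 0.401), and r fell to 0.15 without the 2 calves farthest from the median of miR-301a. It was 0.51 within the 9 and 0.49 within the other 21 calves, and 0.64 within HI but 0.17 within MOD calves. The adjusted p was under 0.1 within HI calves (0.0456, permutation test), and not within MOD calves or either set. On total-count scaling r was 0.44, with an adjusted p of 0.0346.

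Between the loci, miR-454 varied with both members of the other pair, with r = 0.44 for miR-130b and r = 0.44 for miR-301b (rho 0.49 for each, permutation p = 0.0153 and p = 0.0148, adjusted p = 0.051 for each). Within the 21 calves r was 0.39 and 0.27, and neither had an adjusted p under 0.1 there. Within the 9 it was 0.51 and 0.82. Within HI calves it was 0.31 and 0.57, and within MOD calves 0.43 and 0.28. With miR-130b the adjusted p was under 0.1 in neither set and neither diet. With miR-301b it was under 0.1 within the 9 and within HI calves. Without the 2 calves farthest from the median r was 0.43 and 0.51. The level of miR-130a, encoded apart from the others, had r between -0.22 and 0.08 with the other 4, and none of these correlations passed an adjusted p of 0.1 (lowest unadjusted permutation p of r = 0.242).

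**Figure D4:**
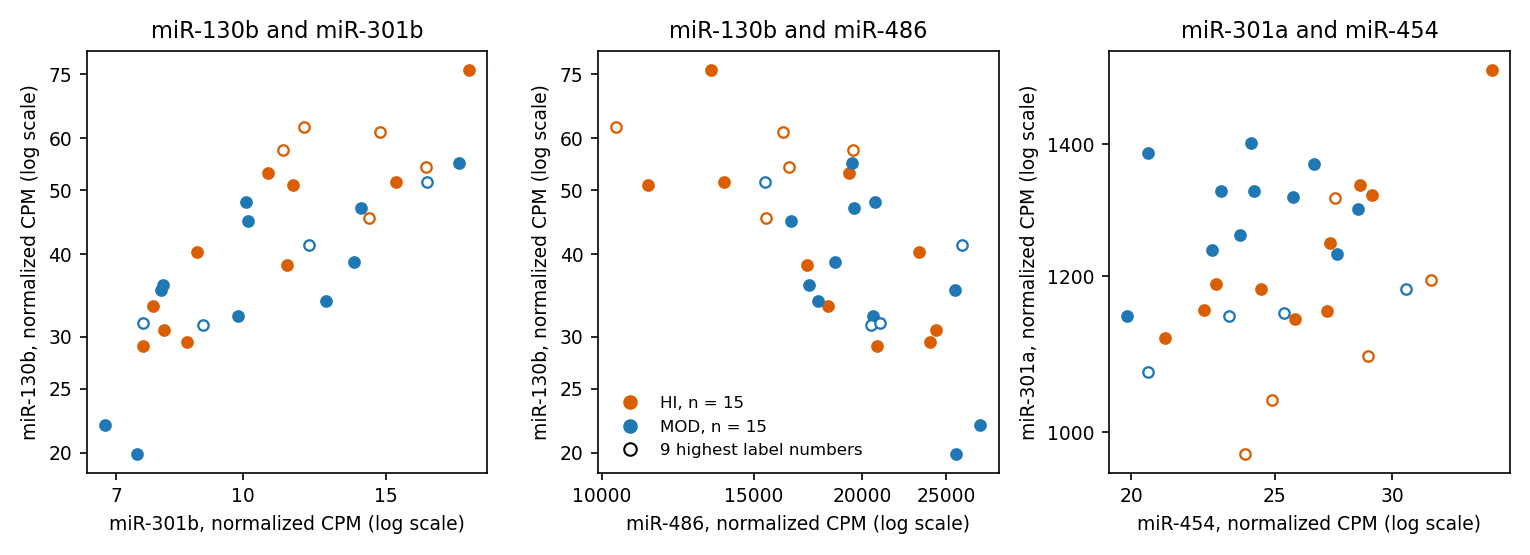
Normalized CPM (log scales) of miR-130b against miR-301b (left), miR-130b against miR-486 (middle) and miR-301a against miR-454 (right), with 1 point per calf in HI and MOD colours and open points for the 9 calves with the highest label numbers. Over the 30 calves r is 0.80, -0.70 and 0.33.

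The miRNAs whose levels followed each member most closely are given as a description, over the same 30 libraries and without a test, since they were picked for their r. For miR-301a these were miR-191 (r = 0.74, rho = 0.68), miR-16a (r = 0.73, rho = 0.68) and miR-29c (r = 0.70, rho = 0.72). For miR-130a they were let-7g (r = 0.65, rho = 0.63), miR-32 (r = 0.55, rho = 0.54) and miR-3431 (r = 0.55, rho = 0.55). The closest to miR-130b was miR-6526 (r = 0.72, rho = 0.69), which was also the closest to miR-301b (r = 0.77, rho = 0.75). After it came miR-154c (r = 0.67, rho = 0.70) and miR-212 (r = 0.66, rho = 0.70) for miR-130b, and both arms of miR-1388 for miR-301b (5p r = 0.75, rho = 0.68, 3p r = 0.75, rho = 0.71). For miR-454 they were miR-212 (r = 0.53, rho = 0.54), miR-431 (r = 0.45, rho = 0.40) and miR-27a-5p (r = 0.45, rho = 0.49). The neuronal activity-linked miR-212 was thus among the closest for members of both loci, and miR-6526 rests on a mean of only 3.83 CPM. For miR-212 and miR-454 r was 0.85 within the 9 calves but 0.41 within the 21. For miR-212 and miR-130b it was 0.63 and 0.62.

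Levels of miR-130b and miR-301b also moved against miR-486, known from erythroid cells and muscle. The summed level of the red blood cell list (miR-451, miR-144 and miR-486) was correlated with miR-130b at r = -0.70 and rho = -0.69 (permutation p = 1e-05 and p = 3e-05, adjusted p = 0.00035 and 0.00105 over 35 pairs of a member and a list). The r was -0.70 without the 2 farthest calves, -0.64 within the 9 calves, -0.71 within the other 21, -0.70 within HI and -0.61 within MOD calves. For miR-301b r was -0.59 and rho -0.68 (permutation p = 0.00061 and p = 0.00011, adjusted p = 0.00712 and 0.00192), with -0.70 without the 2 farthest calves, -0.40 within the 9 and -0.64 within the 21. For miR-454 r was -0.43 and rho -0.58 (adjusted p = 0.104 and 0.0101, permutation test), with -0.56 without the 2 farthest calves, -0.29 within the 9 and -0.48 within the 21. Of the summed level 99.2% was miR-486. Taken singly after these values were seen, miR-486 gave r = -0.70 with miR-130b, whereas miR-451 and miR-144, which are nearly specific to red cells, gave -0.10 and -0.04.

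The level of miR-486 averaged 17581 ± 4356 CPM on the HI diet against 20807 ± 3718 CPM on the MOD diet (SD, n = 15 each), so that limma gave -0.27 ± 0.11 (SE) for the log2 fold change, at FDR = 0.274. The other 2 of the list had estimates in the opposite direction. On the HI diet miR-451 averaged 159 ± 87.2 CPM against 102 ± 34.8 CPM on the MOD diet (log2 0.55 ± 0.21, SE, FDR = 0.190 from limma), and miR-144 averaged 5.44 ± 2.70 against 3.43 ± 0.819 CPM (log2 0.46 ± 0.15, SE, FDR = 0.115 from limma). The study, using edgeR, reported both miR-451 and miR-144 as higher in HI calves at its thresholds. With miR-486 as a covariate the log2 fold change of miR-130b was 0.09 in place of 0.31, that of miR-301b was -0.09 in place of 0.11, and that of miR-454 was 0.07 in place of 0.12. The part of red cells or of any other source of miR-486 in these values was not tested. Less RNA per cell and fewer cells of a type cannot be told apart in such tissue.

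Other lists gave fewer links. The summed level of miR-148a, miR-148b, miR-152, miR-19a and miR-19b, whose seeds partly overlap that of the family, followed miR-301a (r = 0.60, rho = 0.63, permutation p = 0.00044 and p = 0.00034, adjusted p = 0.00712 and 0.00397), at 0.50 without the 2 farthest calves, 0.41 within the 9 and 0.59 within the 21. Of this sum 96.8% was miR-148a. The summed level of the miR-17/92 and related clusters, known for cell proliferation, ran against miR-454 (r = -0.51, rho = -0.53, permutation p = 0.0038 and p = 0.00293, adjusted p = 0.0332 and 0.0205), at -0.41 without the 2 farthest calves, -0.41 within the 9 and -0.56 within the 21. Of this sum 87.4% was miR-92a and miR-25. It also ran against miR-301b (r = -0.47, rho = -0.46, permutation p = 0.00867 and p = 0.0109, adjusted p = 0.0607 and 0.0544), at -0.44, -0.47 and -0.49 in the same order. For miR-130a, the endothelial pair of miR-126 arms gave r = 0.39 and rho = 0.48 (permutation p = 0.0345 and p = 0.00778, adjusted p = 0.172 and 0.0454), at 0.37, 0.34 and 0.42 in that order. The summed stromal list gave r = -0.34 and rho = -0.42 with miR-301b (permutation p = 0.054 and p = 0.0202, adjusted p = 0.236 and 0.0882), at -0.30, -0.41 and -0.34. No pair with the endocrine or the white blood cell list passed an adjusted p of 0.1.

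Between the diets no miRNA of the related-seed list (0 of 5 tested) or of the miR-17/92 list (0 of 10, of which miR-19a and miR-19b are in both) passed FDR < 0.1 in limma, nor in edgeR's quasi-likelihood test or DESeq2. At an unadjusted p under 0.05 there were 0 and 1 of them. Their median log2 fold changes were -0.03 and -0.01, beside 0.02 over all miRNAs tested. The same held for the endocrine list (0 of 7, median -0.06, 1 at an unadjusted p under 0.05), the endothelial list (0 of 2, median -0.03, 0 at that p), the stromal list (0 of 5, median 0.15, 1 at that p) and the white blood cell list (0 of 6, median 0.11, 0 at that p). In the red blood cell list 0 of 3 passed in limma (median 0.46 over 2 estimates above 0 and that of miR-486 below 0, 3 at that p), and 2 passed in each of the other tests, where 5.01% and 5.73% of all miRNAs did.

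Between the 9 calves and the other 21, 1 of the 5 members passed FDR < 0.1 with diet in the model, beside 26.0% of all miRNAs. This was miR-301a, at 975 to 1315 CPM in the 9 (median 1145) and 1116 to 1528 CPM in the 21 (median 1259). Means were 1129 ± 99.1 (SD, n = 9) and 1269 ± 106 CPM (SD, n = 21), a log2 difference of -0.16 (standard error 0.05, FDR = 0.0186 from limma). Within the 21, HI calves were at 1236 ± 126 and MOD calves at 1299 ± 76.3 CPM, and within the 9 at 1123 ± 134 and 1137 ± 46.0 CPM (SD), so the diet estimate of miR-301a was below 0 in both sets (-0.08 with exact permutation p = 0.146, and -0.03 with exact permutation p = 0.825). The other 4 members gave log2 differences between the sets of -0.02 to 0.26, with FDR of 0.257 or more. Over 4 groups of calves formed by the second digit of the label number, 0 of 5 members and 0.239% of all miRNAs passed FDR < 0.1 in limma's F test, and 1 member, miR-301a, had an unadjusted p under 0.05 there (p = 0.0303).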

How the data were processed

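Small RNA libraries of 30 anterior pituitaries were compared by diet, as given in the labels (HI, n = 15, and MOD, n = 15). Calf numbers follow the order of deposition and only name a calf. The authors removed adapters and reads of unsuitable length with Cutadapt, filtered out rRNA, tRNA, snRNA and snoRNA, aligned with Bowtie (bovine genome ARS-UCD1.2) and quantified miRBase miRNAs with miRDeep2. What they deposited is a normalized signal, CPM after TMM scaling, rather than raw counts. The spacing of low values gave the worth of 1 read, by which values were turned back into reads. Of low values, 93.7% or more per library were whole within 0.1 read, and simulated totals were recovered in 20 of 20 libraries. Recomputed TMM factors lay within 1.13e-05 of those in the deposited CPM. No library was a copy of another (lowest chi-square per degree of freedom 74.6 over 435 pairs).

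Limma 3.58.1 (R 4.3.3, eBayes with trend) on log2(CPM + 1) tested 419 miRNAs, those kept by filterByExpr of edgeR, with Benjamini-Hochberg adjustment and the study's thresholds, FDR < 0.1 and fold change > 1.5. In simulated data for the comparison of HI and MOD over these 419 miRNAs, with 200 changed 1.5-fold, 189 of the 200 were found with the correct sign, along with 14 that had not been changed. With none changed, 2 were called. In the data only 3.58% passed, so the simulation does not give the share of true changes found there. Single ratios and correlations used permutation tests with 1e+05 resamples. They were exact for differences within the sets of 9 and 21 calves and for correlations within the 9. SciPy 1.17.1 ran those of ratios and of diet differences, except with diets permuted within the sets, which had 20000 resamples. Alternatives were edgeR 4.0.16, DESeq2 1.42.0 and limma-voom on recovered reads, other scalings, filters and a pseudocount of 0.1, covariates, and each calf left out. The members, the marker and related lists and the tests were chosen with earlier results of these data known. The RefSeq table (ARS-UCD2.0, another build) served only for names and neighbours, and matched all 5 members. The naming rule took the 5 members, the 3 non-members with the highest r to each, and list members at FDR < 0.1. Any other miRNA was named after its values were seen. Mature sequences and messenger RNA were not analysed here.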

Additional observations from a re-analysis of the deposited data

How the results depend on the processing

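No member passed FDR < 0.1 in any of 45 alternatives, 30 of which left out 1 calf. No paired analysis was possible because calf numbers do not come from the labels and the blocks of the study (age, bodyweight, sire and farm) were not identified. The log2 fold change of miR-130a was 0.027 with total counts and 0.030 when the 5 most abundant miRNAs were left out of library sizes, and that of miR-301b was -0.086 with miR-486 as a covariate. Over the 15 alternatives with all calves the log2 fold change ran from -0.171 (upper quartile scaling) to -0.0054 for miR-301a, -0.135 (upper quartile scaling) to 0.030 for miR-130a, 0.026 to 0.189 for miR-454, -0.086 to 0.176 for miR-301b and 0.089 to 0.382 for miR-130b. With each calf left out, the log2 fold change ran from 0.25 to 0.36 for miR-130b, -0.10 to -0.05 for miR-301a, -0.06 to -0.02 for miR-130a, 0.06 to 0.16 for miR-301b and 0.09 to 0.15 for miR-454. The 15 miRNAs at FDR < 0.1 became 21 in edgeR's quasi-likelihood test and 24 in DESeq2, both on the recovered reads, 29 with upper quartile scaling and 9 with miR-486 as a covariate, and 14 to 21 with each calf left out. Under total counts 16 were higher and 2 lower in HI calves, and under upper quartile scaling 3 and 26, where 8 and 7 were in the main analysis. Within the 9 calves with the highest label numbers the log2 ratio of miR-130a to miR-301a differed by -0.042, that of miR-301b to miR-454 by 0.17 and that of miR-301a to miR-454 by -0.16. There 0 of 10 ratios passed (1 at an unadjusted permutation p under 0.05), where 1 to 5 did with each calf left out, and the ratio of miR-301b to miR-454 then ran from -0.055 to 0.046. The correlation of miR-130b with miR-301b was 0.71 within the 9. Of the 10 correlations 3 passed, against 1 within the 9, 1 within the 21 and 1 within MOD calves. The causes were not tested. The counting CV of miR-301b, at 52 to 184 reads per library, was 10.5%.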
